A study of Homo sapiens with 12 samples.

Results

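The genes described here are 45 genes of mitosis and the G2/M transition, taken by symbol from the 26485 genes counted in each library of OVCAR8 cells, a long-established line from a human ovarian cancer. They were sorted by known function into 10 role groups, and all 45 were among the 14865 genes that passed the filter on low counts. The cells were grown in RPMI with 10% FBS and kept for 7 h in vehicle (control), in 150 nM EC359, in 100 nM trametinib or in EC359 and trametinib together at those doses (combination). EC359 is an inhibitor of LIFR, the receptor of leukemia inhibitory factor, and trametinib inhibits the kinases MEK1 and MEK2. Each of the 4 conditions had 3 libraries of polyadenylated RNA, 12 in all, from 1 cell line and 1 time. The labels do not say whether the 3 libraries came from separate cultures, so p-values measure only the spread between these libraries. The comparisons ask how each agent changed the genes, and whether the combination differed from either agent alone.

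A cell enters mitosis when cyclin B and the kinase CDK1 become active together, after which chromosomes condense, kinetochores attach them to the spindle, and the anaphase-promoting complex, a ubiquitin ligase, triggers their separation. The messenger RNAs of most of these proteins are made in a wave late in the cell cycle. The complexes that control this wave include MuvB with B-MYB and FOXM1, which switch the genes on, and DREAM, which switches them off in resting or arrested cells. A promoter element called the cell cycle genes homology region (CHR), with the letters TTTGAA or TTTAAA, and CCAAT boxes, which the factor NF-Y binds, are typical of them.

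Total counts ranged from 24790392 to 32467283 per library. Expression is in CPM, a gene's count relative to the TMM-scaled total of its library, and a count of 0 allowed at most 0.0883 to 0.127 CPM (3 counts, counting error only). Of the 9 epithelial or ovarian markers examined, KRT7, KRT8, KRT18, PAX8, EPCAM and WT1 were detected, KRT8 at 1744 to 1962 CPM, while KRT19, CDH1 and MUC16 stayed under 1 CPM in all 12 libraries. PTPRC and CD3E, which define blood cells and T cells, were at 0 in every library, and CD68, a macrophage marker, was at 47.9 to 60.6 CPM. The summed level of 7 markers of other cell types ran from 466 to 493 CPM in control libraries, 279 to 294 under EC359, 564 to 577 under trametinib and 365 to 389 in the combination, most of it from the collagen gene COL1A1 (219 to 525 CPM). That sum was lower than control with EC359 and in the combination and higher with trametinib, and its part in the results was not tested. The MEK output genes SPRY4 and ETV5 fell with trametinib by log2 fold changes of -6.28 and -4.15 (adjusted p = 3.45e-43 and 3.30e-51 by edgeR). They had 2.05 and 0.41 with EC359 and -3.70 and -3.53 in the combination. Of 6 such genes, 6 were lower with trametinib (15.2% of all genes) and 5 higher with EC359 (30.8%). In the combination 5 were lower (34.7%) and 1, EGR1, was higher at 0.30 (35.0%). EGR1 had 4.90 with EC359 and -4.40 with trametinib.

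With EC359, 33 of the 45 genes were lower than control and 6 were higher, where 30.3% of all genes tested were lower and 30.8% higher (adjusted p under 0.05 in the quasi-likelihood F test of edgeR, Benjamini-Hochberg adjusted, with no minimum fold change). In the combination the counts were again 33 lower and 6 higher, beside 34.7% and 35.0% of all genes. Trametinib alone went the other way, with 20 genes higher and 4 lower against a background of 13.0% and 15.2%, and the 4 became 2 without control 2, control 3 or trametinib 3. The median log2 fold change of the 45 genes was -0.19 with EC359, 0.07 with trametinib and -0.36 in the combination, and the median of all genes tested was -0.01, 0.00 and -0.01. These 3 comparisons share the control libraries, so their counts are not independent of each other. In bulk RNA, fewer cells in G2 and mitosis cannot be told apart from less of these RNAs per cell.

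With TMM scaling and EC359, 0 members fell at least 2-fold, as 2.79% of all genes did (the lowest was CDCA8 at -0.77 on the log2 scale in edgeR), and in the combination 1 member did so, beside 5.87% of all genes. With total counts the numbers were 0 members with EC359 and 7 in the combination, where 3.96% and 8.03% of all genes fell that far. Summed over the 45 genes, expression reached 10125 ± 59.0 CPM in control libraries, 8871 ± 52.5 under EC359, 10628 ± 110 under trametinib and 8346 ± 67.9 in the combination (SD, n = 3 each). Each library can be summarised by the median, over members, of its log2 CPM minus the control mean. This median was -0.01 to 0.01 in the control libraries, -0.21 to -0.17 with EC359, 0.04 to 0.08 with trametinib and -0.41 to -0.31 in the combination, so the 4 conditions did not overlap. All 3 combination libraries lay below the other 9 libraries for 28 of the 45 genes, as they did for 15.2% of all genes tested. For 25 of the 45 the combination lay below EC359 and EC359 below control without overlap, against 11.7% of all genes.

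**Figure D1:**
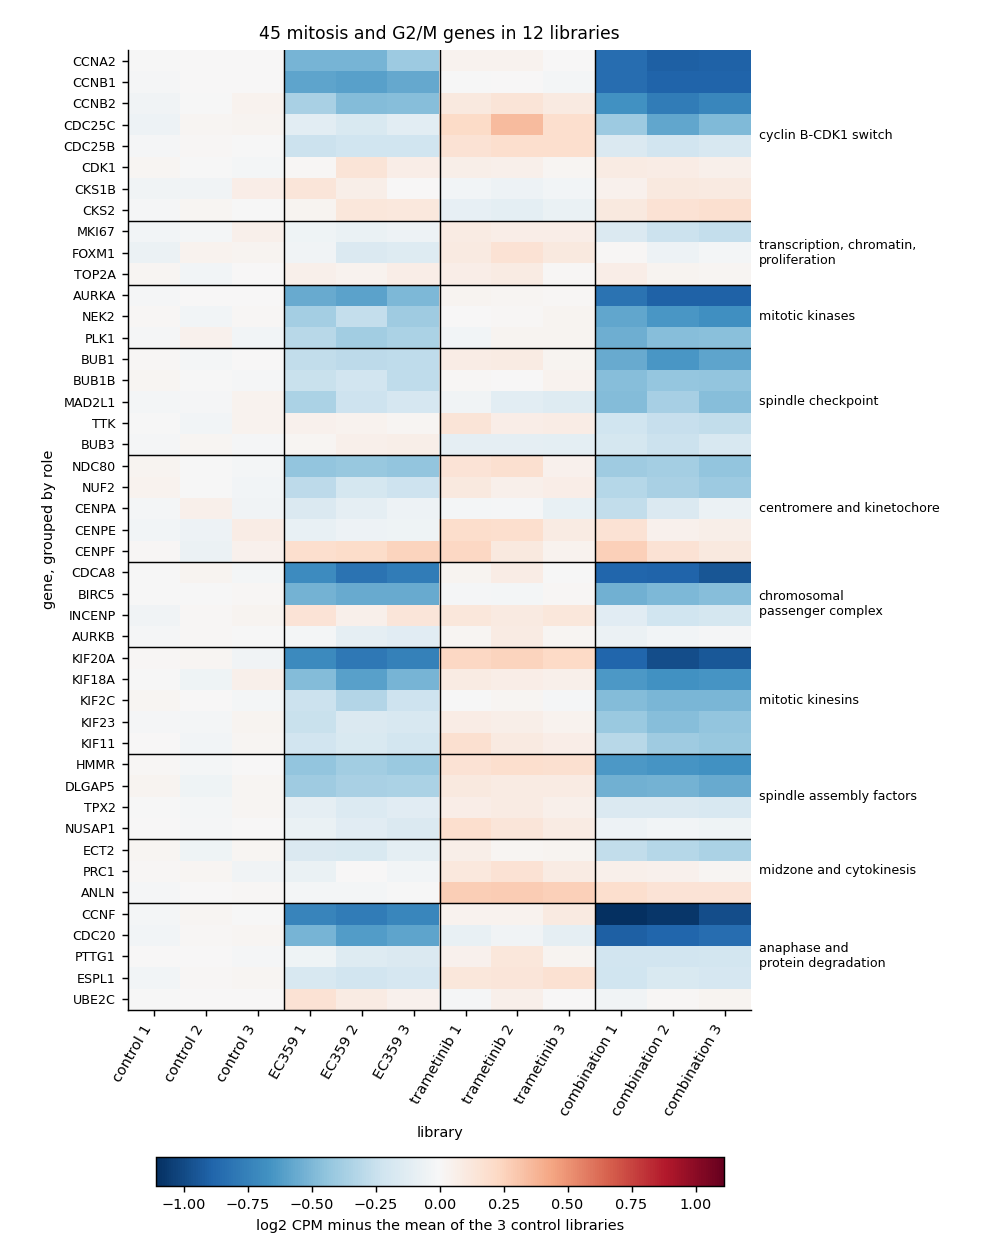
Each row is 1 of the 45 genes, grouped by role, and each column is 1 of the 12 libraries. Colour gives log2 CPM minus the mean of the 3 control libraries (blue lower, red higher). The combination columns are the darkest blue for CCNF, KIF20A, CDCA8, CCNA2, CDC20, CCNB1 and AURKA, while CDK1, TOP2A, UBE2C and PRC1 stay close to white.

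The scaling sets the zero line of these values. With total counts in place of TMM the median of all genes tested shifted to -0.15 with EC359 and -0.14 in the combination. The 45 genes then had 39 lower and 0 higher in each of the 2 comparisons, while trametinib had 2 lower and 26 higher. Of all called genes, 68.2% were then lower with EC359, 64.0% in the combination and 41.6% with trametinib. Under TMM these shares of called genes were 49.6%, 49.8% and 53.8%. At an unadjusted p under 0.05 in edgeR, total counts still gave 0 members higher with EC359 and in the combination, and DESeq2 with its own scaling gave 6 higher in both. Relative to the median of all genes, the members' median was -0.18 with EC359 and -0.36 in the combination under either scaling. A change of scaling moves every gene by nearly the same amount, so this agreement was fixed in advance and tests nothing. The genes called higher with EC359 or in the combination under TMM were thus not called higher with total counts. The 6 not called in the combination under TMM, namely FOXM1, TOP2A, AURKB, NUSAP1, PRC1 and UBE2C, were called lower.

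Promoter windows of 6 genes are shown because they hold the elements named above. They come from genes with low log2 fold changes in the combination and from core members that changed little. CCNF, KIF20A, CDCA8 and CDC20 are the members with the lowest log2 fold changes in the combination whose window holds TTTGAA or TTTAAA. TOP2A and CDK1 are the core members of smallest change that hold 1. Each window runs from 250 bases before to 50 bases after the start in RefSeq (GRCh38.p14), 5′ to 3′ on the gene's strand, and RefSeq starts can differ from the gene bounds of the authors' hg38 annotation given further on. Capitals mark the CHR words TTTGAA and, where present, TTTAAA as well as the box CCAAT on either strand, a match on the other strand appearing as its reverse complement.
CCNF promoter (chr16:2429197-2429496, plus strand): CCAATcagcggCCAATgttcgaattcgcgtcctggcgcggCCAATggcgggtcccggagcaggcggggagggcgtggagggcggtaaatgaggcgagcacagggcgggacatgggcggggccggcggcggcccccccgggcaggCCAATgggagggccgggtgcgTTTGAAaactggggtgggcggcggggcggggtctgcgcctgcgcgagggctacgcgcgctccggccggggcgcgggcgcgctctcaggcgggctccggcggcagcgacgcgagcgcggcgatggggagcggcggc
KIF20A promoter (chr5:138178862-138179161, plus strand): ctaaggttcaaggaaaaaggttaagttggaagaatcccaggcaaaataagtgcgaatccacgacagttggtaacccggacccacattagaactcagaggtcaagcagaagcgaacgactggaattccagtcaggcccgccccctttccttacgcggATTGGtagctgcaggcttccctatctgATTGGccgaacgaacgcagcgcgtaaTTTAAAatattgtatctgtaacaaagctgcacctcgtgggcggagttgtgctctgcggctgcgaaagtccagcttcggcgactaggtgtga
CDCA8 promoter (chr1:37692266-37692565, plus strand): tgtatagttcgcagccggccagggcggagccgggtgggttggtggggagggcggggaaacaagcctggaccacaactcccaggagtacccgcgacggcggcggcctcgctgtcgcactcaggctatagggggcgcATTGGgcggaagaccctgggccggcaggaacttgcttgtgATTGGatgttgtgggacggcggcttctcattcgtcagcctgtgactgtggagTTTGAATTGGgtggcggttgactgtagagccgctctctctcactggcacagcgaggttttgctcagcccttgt
CDC20 promoter (chr1:43358731-43359030, plus strand): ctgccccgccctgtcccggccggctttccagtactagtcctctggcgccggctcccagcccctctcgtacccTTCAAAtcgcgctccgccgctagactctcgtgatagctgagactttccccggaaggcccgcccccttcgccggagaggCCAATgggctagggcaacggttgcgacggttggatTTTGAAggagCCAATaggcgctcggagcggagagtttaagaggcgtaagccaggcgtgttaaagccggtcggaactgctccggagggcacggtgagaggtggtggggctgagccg
TOP2A promoter (chr17:40417847-40418146, minus strand): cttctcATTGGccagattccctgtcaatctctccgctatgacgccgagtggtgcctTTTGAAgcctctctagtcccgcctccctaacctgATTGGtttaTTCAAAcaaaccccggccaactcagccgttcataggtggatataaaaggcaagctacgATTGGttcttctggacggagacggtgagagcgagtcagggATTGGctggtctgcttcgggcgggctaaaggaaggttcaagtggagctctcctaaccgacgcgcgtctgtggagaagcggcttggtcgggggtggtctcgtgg
CDK1 promoter (chr10:60778081-60778380, plus strand): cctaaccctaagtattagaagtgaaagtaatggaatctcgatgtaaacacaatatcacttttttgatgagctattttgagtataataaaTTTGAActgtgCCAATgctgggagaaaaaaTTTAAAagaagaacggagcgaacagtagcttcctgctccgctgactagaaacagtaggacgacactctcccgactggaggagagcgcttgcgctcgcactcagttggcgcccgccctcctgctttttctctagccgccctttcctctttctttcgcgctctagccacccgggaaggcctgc

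In these windows CCNF held 1 TTTGAA, whose first base lay at -85 from the start, and 4 CCAAT. KIF20A held a TTTAAA at -41 and 2 CCAAT. CDCA8 held a TTTGAA at -23, which overlaps the nearest of its 3 CCAAT, and CDC20 held a TTTGAA at -65 and another, on the other strand, at -178. TOP2A held 2 TTTGAA and 4 CCAAT, and CDK1 held 1 of each of the 3 words in the window shown. A second CDK1 window, chr10:60778228-60778527, held 3 TTTGAA, 2 of them within 50 bases of its start, and 2 CCAAT. Of the 45 genes, 38 had a window in the table used, 48 windows in all, since some genes have several starts and their windows can overlap.

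TTTGAA was present in 64.6% of the 48 member windows against 15.2% of 35116 windows of all genes. TTTAAA was present in 29.2% against 12.2%, and CCAAT in 77.1% against 34.6%. A TTTGAA within 50 bases of the start was found in 52.1% of member windows and 4.62% of all windows, and TTTGAA together with at least 2 CCAAT in 35.4% and 1.78%. The 24 genes with TTTGAA near the start had a combination median of -0.34 (log2 fold change), and the 14 without had -0.55. Among the 14 were KIF20A, CCNB1, KIF2C, PTTG1 and CDC25B, which held TTTAAA near a start. CCNF and CDC20, whose TTTGAA lay farther from the start, were also among them. The split therefore does not separate genes with a CHR word from genes without. The 22 genes with at least 2 CCAAT had a median of -0.40 and the 16 with fewer had -0.39. A match of letters is a description of the window and not a mapped binding site.

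In the cyclin B-CDK1 switch, 5 of 8 genes were lower and 3 higher in the combination, 5 lower and 2 higher with EC359, and 1 lower and 3 higher with trametinib. Of all genes, 34.7% were lower and 35.0% higher in the combination, 30.3% and 30.8% with EC359, and 15.2% and 13.0% with trametinib. The shares higher in the combination (37.5%) and with EC359 (25%) and lower with trametinib (12.5%) were near those of all genes. CCNB1, which encodes cyclin B1 (chr5:69167010-69178243, plus strand, hg38), measured 452, 456 and 458 CPM in the control libraries, 303, 299.8 and 307 with EC359, 454, 457 and 449 with trametinib and 254, 247 and 245 in the combination. Control and trametinib libraries overlapped, EC359 lay below both, and the combination lay below EC359. Compared to control, CCNB1 was at 66.6% with EC359 and 54.6% in the combination (log2 fold changes -0.59 ± 0.023 and -0.87 ± 0.023, SE, adjusted p = 9.05e-30 and 5.36e-38 by edgeR). With trametinib alone its log2 fold change was -0.01 (95% interval -0.05 to 0.04).

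CCNA2, cyclin A2 (chr4:121816444-121823933, minus strand), measured 239, 241 and 240.2 CPM in the control libraries, 168, 168 and 182 with EC359, 247, 247 and 240.4 with trametinib and 133, 128 and 129 in the combination. Its 3 combination libraries were below all others, and its EC359 libraries lay between them and control. CCNA2 fell to 71.9% of control with EC359 and to 54.2% in the combination, the largest fall of its role group, close to that of CCNB1 (log2 fold change -0.88 ± 0.028, SE, adjusted p = 2.31e-34 by edgeR). CCNB2, cyclin B2, followed with log2 fold changes of -0.44 and -0.72. CDC25C, a phosphatase that removes inhibitory phosphates from CDK1 (chr5:138285265-138338355, minus strand), measured 25.2, 26.6 and 26.6 CPM in the control libraries, 24.1, 23.3 and 24.0 with EC359, 30.3, 33.4 and 29.7 with trametinib and 19.8, 17.5 and 18.6 in the combination. All of its trametinib libraries were above control and all combination libraries were below the other 9. The log2 fold changes of CDC25C were -0.14 with EC359, 0.25 with trametinib and -0.49 in the combination (adjusted p = 0.0366, 0.000303 and 1.46e-10 by edgeR), and the call with EC359 was lost with DESeq2 (adjusted p = 0.0881) and without control 2, control 3 or any of the EC359 libraries (0.0546 to 0.129). The related phosphatase CDC25B had -0.23, 0.18 and -0.18.

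CDK1 itself, the kinase of this switch (chr10:60778331-60794852, plus strand), did not fall under TMM scaling. It measured 169, 166 and 164 CPM in the control libraries, 168, 184 and 174 with EC359, 173, 173 and 169 with trametinib and 177, 176 and 173 in the combination. The combination libraries were all above control, and the EC359 libraries overlapped with control. Its log2 fold change in the combination was 0.08 ± 0.028 (SE, adjusted p = 0.0121 by edgeR) and turned to -0.06 with total counts, and with EC359 it was 0.08 and turned to -0.05. The call in the combination was lost without control 3 (adjusted p = 0.0568), and that with EC359 without control 3 (0.0552) or EC359 2 (0.177). CKS1B and CKS2, small subunits that bind CDKs, had log2 fold changes of 0.08 and 0.15 in the combination, which were -0.06 and 0.01 with total counts.

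The 3 mitotic kinases were all lower with EC359 and in the combination, where 30.3% and 34.7% of all genes were lower. None of them was called with trametinib, where 15.2% of all genes were lower and 13.0% higher. AURKA, which matures centrosomes and builds the spindle (chr20:56369389-56392295, minus strand), measured 284, 288 and 288 CPM in the control libraries, 194, 189.8 and 202 with EC359, 293, 291 and 289 with trametinib and 162, 154 and 153 in the combination. Its EC359 and combination libraries were each apart from control and from each other. The log2 fold change of AURKA was -0.55 ± 0.026 with EC359 and -0.87 ± 0.027 in the combination (SE, adjusted p = 4.43e-26 and 2.64e-35 by edgeR). PLK1, a kinase needed from mitotic entry to cytokinesis (chr16:23678822-23690367, plus strand), measured 285, 298 and 283 CPM in the control libraries, 233, 220.3 and 226 with EC359, 282, 295 and 294 with trametinib and 198, 208 and 209 in the combination. It fell to 78.4% of control with EC359 and to 71.0% in the combination, with trametinib and control libraries overlapping (log2 fold changes -0.35 and -0.49, adjusted p = 3.57e-17 and 1.63e-23 by edgeR). NEK2, which separates centrosomes, had log2 fold changes of -0.34 and -0.63.

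All 5 spindle checkpoint genes, whose products hold back anaphase until every kinetochore is attached, were lower in the combination, and 3 of them were lower with EC359. Of all genes tested, 34.7% were lower in the combination and 30.3% with EC359. BUB1, a checkpoint kinase (chr2:110637698-110678107, minus strand), measured 440.5, 428 and 438 CPM in the control libraries, 360.0, 357 and 357 with EC359, 461, 463 and 444 with trametinib and 295, 278 and 290.1 in the combination. No combination library reached the lowest EC359 library, and no EC359 library reached control. BUB1 had log2 fold changes of -0.28 ± 0.024 and -0.60 ± 0.024 (SE, adjusted p = 2.28e-15 and 2.41e-29 by edgeR). In the combination BUB1B had -0.45, MAD2L1 -0.44, TTK -0.25 and BUB3 -0.20. TTK and BUB3 were not called with EC359 alone, at 0.03 and 0.05, but were called lower with total counts, at -0.10 and -0.09 (adjusted p = 0.00147 and 0.0024 by edgeR). BUB1B shares exon sequence on the same strand with PAK6, so reads in those exons were divided between the 2 genes.

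Among centromere and kinetochore genes, 3 of 5 were lower and 2 higher in the combination, beside 34.7% and 35.0% of all genes. NDC80, a subunit of the complex that holds microtubules (chr18:2571511-2616635, plus strand), measured 99.9, 97.1 and 95.9 CPM in the control libraries, 72.2, 72.9 and 72.3 with EC359, 108, 111 and 101 with trametinib and 74.1, 75.1 and 72.1 in the combination. The EC359 and combination libraries overlapped with each other and lay below control. Its log2 fold change was -0.43 with EC359 and -0.40 in the combination (adjusted p = 2.12e-16 and 1.18e-15 by edgeR), and the combination differed from EC359 by 0.03 (95% interval -0.05 to 0.10). Its partner NUF2 had -0.24 and -0.36, and the centromeric histone CENPA had -0.11 and -0.17. CENPF and CENPE, large kinetochore proteins, were higher in the combination at 0.18 and 0.09, which were 0.04 and -0.05 with total counts and no longer called higher.

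In the chromosomal passenger complex, which corrects faulty attachments, CDCA8 (borealin) changed most (chr1:37692401-37709719, plus strand). It measured 146, 149.6 and 145 CPM in the control libraries, 90.4, 83.3 and 85.7 with EC359, 149.7, 155 and 146 with trametinib and 79.7, 79.4 and 76.2 in the combination. EC359 and combination libraries were both far below control, and the combination was lower than EC359 by a small margin without overlap. CDCA8 fell to 58.8% of control with EC359 and 53.4% in the combination (log2 fold changes -0.77 ± 0.032 and -0.91 ± 0.032, SE, adjusted p = 8.34e-29 and 3.44e-32 by edgeR). BIRC5 (survivin) had -0.55 with EC359 and -0.50 in the combination. AURKB, the kinase of the complex, was not called in the combination (-0.03, 95% interval -0.10 to 0.03), and its scaffold INCENP had 0.11 with EC359 (-0.02 with total counts) and -0.18 in the combination.

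All 5 mitotic kinesins, proteins of the motor family that act on spindle microtubules, were lower with EC359 and in the combination. The shares of all genes lower there were 30.3% and 34.7%. KIF20A, which acts at the midzone in cytokinesis (chr5:138178728-138187715, plus strand), measured 199.9, 201 and 192 CPM in the control libraries, 121, 114 and 118 with EC359, 231, 234 and 230.0 with trametinib and 107, 100.2 and 103 in the combination. Its trametinib libraries were all above control, its EC359 libraries all below, and its combination libraries below every other library. KIF20A had log2 fold changes of -0.75 with EC359, 0.23 with trametinib and -0.93 in the combination (adjusted p = 4.11e-30, 6.18e-10 and 1.28e-34 by edgeR). In the combination KIF18A, which limits microtubule growth, had -0.66, the depolymerase KIF2C -0.50, KIF23 -0.44 and KIF11, which pushes the spindle poles apart, -0.38.

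The spindle assembly factors TPX2, HMMR, DLGAP5 and NUSAP1 numbered 4 lower and 0 higher with EC359, 0 lower and 4 higher with trametinib and 3 lower and 0 higher in the combination. The shares of all genes lower and higher were 30.3% and 30.8% with EC359, 15.2% and 13.0% with trametinib, and 34.7% and 35.0% in the combination. HMMR, which binds hyaluronan and spindle microtubules (chr5:163460511-163491946, plus strand), measured 135, 132 and 134 CPM in the control libraries, 98.2, 102 and 101 with EC359, 149, 152 and 151 with trametinib and 85.8, 84.8 and 83.5 in the combination. The 4 conditions were fully apart, with trametinib highest and the combination lowest. Its log2 fold changes were -0.41, 0.17 and -0.65 (adjusted p = 1.75e-18, 1.05e-06 and 4.18e-27 by edgeR). DLGAP5 had -0.54 and TPX2, which activates Aurora A, -0.17 in the combination, while NUSAP1 had -0.04 and was not called.

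Of the 10 role groups, the 3 midzone and cytokinesis genes had the median closest to 0 with EC359 (-0.03). ECT2, which activates RhoA at the cleavage furrow (chr3:172750685-172821474, plus strand), measured 222, 211 and 222 CPM in the control libraries, 195, 194 and 202 with EC359, 228, 222 and 223 with trametinib and 181, 175 and 171 in the combination. The trametinib libraries overlapped with control and the combination lay below the rest. ECT2 had log2 fold changes of -0.15 with EC359 and -0.31 in the combination (adjusted p = 3.89e-06 and 3.07e-15 by edgeR). PRC1, which bundles midzone microtubules, was called neither with EC359 (-0.03) nor in the combination (0.04), but was called lower with total counts, at -0.17 and -0.10 (adjusted p = 7.67e-08 and 0.000587 by edgeR). ANLN (anillin), a scaffold of the contractile ring, was the member with the largest rise under trametinib at 0.27 ± 0.022 (SE, adjusted p = 1.00e-15 by edgeR). It was also higher in the combination at 0.16, which was 0.02 with total counts and no longer called.

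Of the 5 genes of anaphase and protein degradation, 4 were lower with EC359 and in the combination, beside 30.3% and 34.7% of all genes. CCNF, cyclin F, the substrate receptor of an SCF ubiquitin ligase (chr16:2429394-2458858, plus strand), measured 138, 142 and 139.9 CPM in the control libraries, 84.4, 81.8 and 84.7 with EC359, 144, 144 and 149.8 with trametinib and 64.9, 66.4 and 70.9 in the combination. Its combination libraries held less than any other library, and its EC359 libraries lay clearly below control. Under TMM scaling CCNF was the only member to fall at least 2-fold against control, to 48.2% in the combination (log2 fold change -1.05 ± 0.033, SE, adjusted p = 4.33e-35 by edgeR), and it was at 59.7% with EC359. With total counts, KIF20A, CDCA8, CCNA2, CDC20, CCNB1 and AURKA also passed that line in the combination, from -1.07 for KIF20A to -1.01 for AURKA, with CCNF at -1.19. CDC20, which activates the anaphase-promoting complex (chr1:43358955-43363202, plus strand), measured 367, 378 and 379 CPM in the control libraries, 262, 244 and 249.9 with EC359, 354, 365 and 349 with trametinib and 199, 204 and 208 in the combination. It was lower in all 3 treatments, without overlap with control. The log2 fold changes of CDC20 were -0.58, -0.08 and -0.88 (adjusted p = 4.48e-27, 0.0197 and 1.12e-35 by edgeR), and the call with trametinib was lost with total counts (adjusted p = 0.139) and without control 2, control 3, trametinib 1 or trametinib 3 (0.0728 to 0.124). The separase gene ESPL1 and securin, PTTG1, had -0.19 and -0.21 in the combination, and UBE2C, the ubiquitin-conjugating partner of the complex, had 0.00 (95% interval -0.05 to 0.06). The near copies PTTG2 and PTTG3P were at most 0.214 CPM.

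Of the 3 markers of transcription, chromatin and proliferation, 2 were lower and 1 higher with EC359, beside 30.3% and 30.8% of all genes. The 1 higher with EC359 (33.3%) was near that share. With trametinib 3 were higher, as were 13.0% of all genes. In the combination 1 was lower (33.3%, near the 34.7% of all genes). The 3 called higher with trametinib became 1 without control 2 or without trametinib 1. FOXM1, a transcription factor of G2/M genes (chr12:2857681-2877155, minus strand), measured 273, 295 and 292 CPM in the control libraries, 278, 256 and 260.2 with EC359, 308, 321 and 309 with trametinib and 288, 276 and 282 in the combination. Its combination libraries overlapped with control, with a log2 fold change of -0.02 (95% interval -0.08 to 0.04, adjusted p = 0.501 by edgeR), which became -0.16 with total counts (adjusted p = 3.24e-06). FOXM1 had -0.12 with EC359 and 0.12 with trametinib. TOP2A, the topoisomerase that untangles chromosomes (chr17:40388521-40417950, minus strand), measured 602, 582 and 596 CPM in the control libraries, 616, 609 and 624 with EC359, 626, 634 and 599.6 with trametinib and 623, 606 and 602 in the combination. Its libraries overlapped between control and the combination. TOP2A had 0.05 with EC359 (adjusted p = 0.039 by edgeR) and 0.04 in the combination, and these turned to -0.08 and -0.10 with total counts. The call with EC359 was lost without control 2, control 3 or EC359 3 (adjusted p = 0.0599 to 0.179), and TOP2A's call with trametinib without control 2, control 3, trametinib 1 or trametinib 2 (0.0679 to 0.217). MKI67, the source of the Ki-67 antigen (chr10:128096661-128126204, minus strand), measured 378, 379 and 400.3 CPM in the control libraries, 374, 366 and 371 with EC359, 409.9, 405 and 405 with trametinib and 346, 326 and 321 in the combination. Its combination libraries were the lowest of the 12, at 85.7% of control (log2 fold change -0.22, adjusted p = 3.16e-11 by edgeR). With EC359 alone MKI67 had -0.06, a call that was lost with DESeq2 (adjusted p = 0.081) and without control 3, EC359 2 or EC359 3 (0.0743 to 0.346). Its call with trametinib was lost without control 1, control 2 or trametinib 1 (adjusted p = 0.0705 to 0.116 by edgeR).

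**Figure D2:**
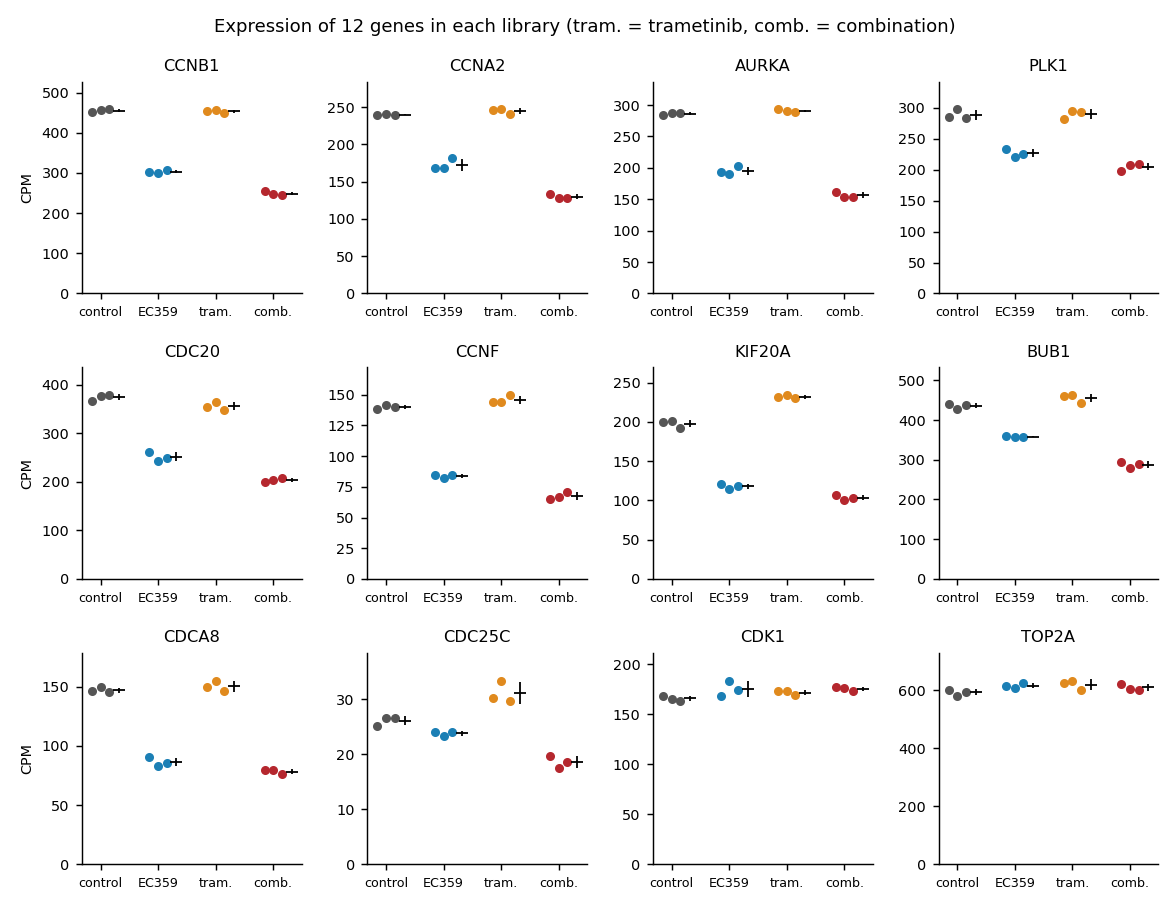
CPM of 12 genes in each library, with 3 points per condition and, beside them, the mean and SD as a bar. All axes start at 0. In CCNB1, CCNA2, AURKA, PLK1, CDC20, CCNF, KIF20A, BUB1, CDCA8 and CDC25C the combination libraries lie below the rest, while CDK1 and TOP2A stay near their control level.

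In RPKM, which is CPM per kilobase of annotated exon, the members spanned 10.2 ± 0.317 for CDC25C to 506 ± 5.65 for CKS2 in control (SD, n = 3 each). CDC20, CCNB1, UBE2C and TPX2 followed CKS2 at 224 ± 3.99, 210.1 ± 1.34, 199.7 ± 0.654 and 188 ± 2.66 RPKM. In the combination CDC20 and CCNB1 fell to 122 ± 2.66 and 115 ± 2.11 RPKM, while CKS2 and UBE2C were at 561 ± 13.3 and 200.2 ± 5.11 RPKM. UBE2C was thus below CDC20 and CCNB1 in control and above both in the combination.

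**Figure D3:**
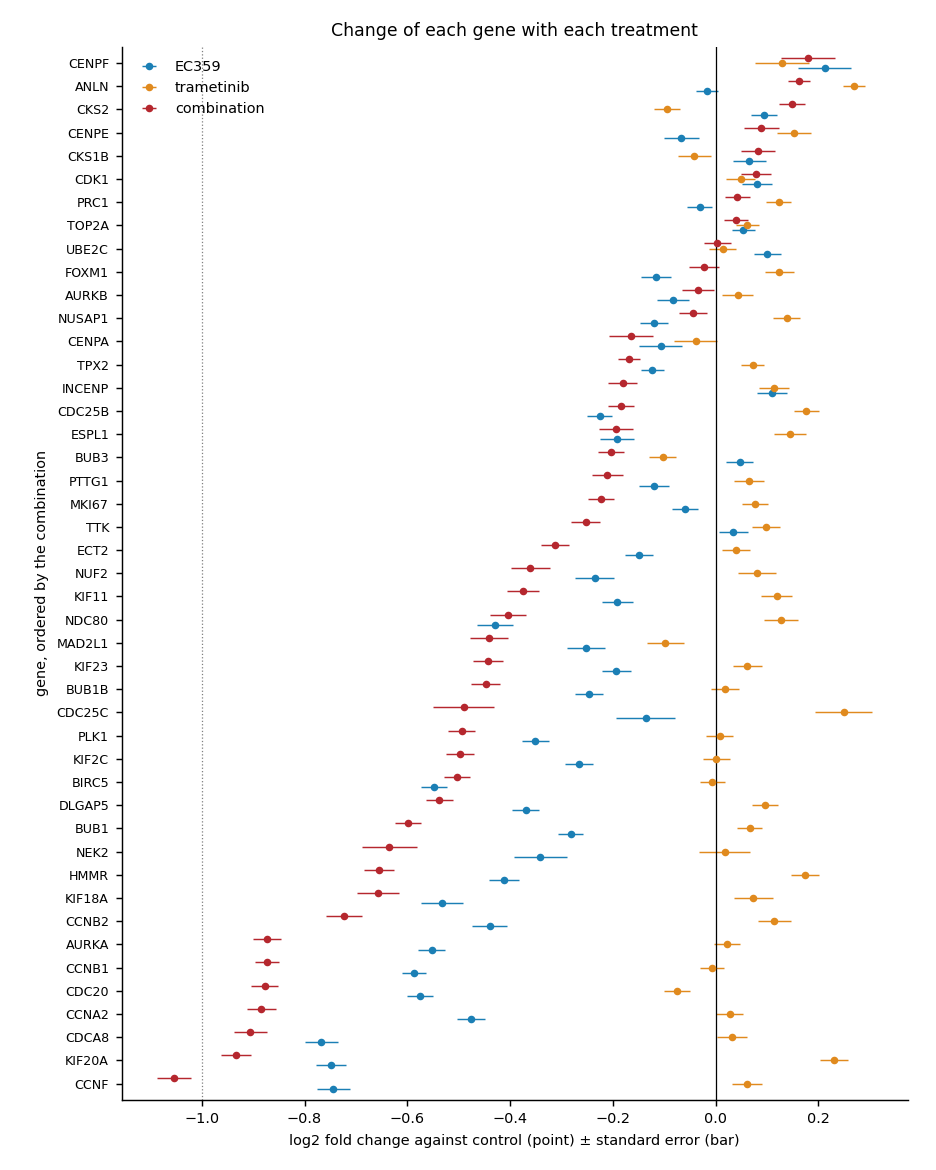
Log2 fold change against control for each of the 45 genes, with the standard error as a bar, for EC359 (blue), trametinib (orange) and the combination (red). Genes are ordered by the combination, from CENPF at 0.18 to CCNF at -1.05. The dotted line marks a 2-fold fall, which under this TMM scaling CCNF alone passes, while 7 genes do so with total counts. Most orange points lie at or above 0 and most blue and red points below it.

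Compared with EC359 alone, 28 members were lower and 5 higher in the combination, against 25.2% and 24.1% of all genes, with a median log2 fold change of -0.14 (all genes 0.00). CCNA2 fell most, by 0.41 on the log2 scale (adjusted p = 5.52e-18 by edgeR), followed in this comparison by CDC25C at -0.35. AURKA at -0.32, BUB1 at -0.32, CCNF at -0.31, CDC20 at -0.30 and CCNB1 at -0.29 moved less. The 5 that were higher than with EC359 were FOXM1, CENPE, NUSAP1, PRC1 and ANLN, from 0.07 for PRC1 to 0.18 for ANLN, and FOXM1 was not called without EC359 2 (adjusted p = 0.0871) or combination 1 (adjusted p = 0.0582).

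Compared with trametinib alone, 38 members were lower in the combination and 2, CKS1B and CKS2, were higher (1 with total counts), against 32.9% and 35.3% of all genes. Their median log2 fold change was -0.36 (all genes 0.00). KIF20A fell to 44.7% and CCNF to 46.2% of their level with trametinib (log2 fold changes -1.16 ± 0.029 and -1.12 ± 0.033, SE, adjusted p = 2.93e-39 and 3.45e-36 by edgeR). Under TMM scaling they were the only members with a fall of at least 2-fold here, as had 5.48% of all genes. With total counts 7 members fell that far (7.64% of all genes), the others being CDCA8, CCNA2, AURKA, CCNB1 and CCNB2. CDK1, TOP2A, CENPE, CENPF and UBE2C were not called in this comparison. With total counts CDK1 (-0.13), TOP2A (-0.19), CENPE (-0.23) and UBE2C (-0.17) were called lower, and CENPF was not (adjusted p = 0.082 by edgeR).

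The combination was also compared with what the single agents would give if their log2 effects added up. This interaction term was below 0 for 31 members and above 0 for 1, CKS2, among genes with adjusted p under 0.05, where 15.9% and 14.4% of all genes were called in these directions. The members' median was -0.17 (all genes -0.01). CDC25C had the largest term at -0.60 ± 0.082, then CCNA2 at -0.44 ± 0.040, HMMR at -0.42 ± 0.042 and KIF20A at -0.41 ± 0.041 (SE, adjusted p = 4.12e-08, 3.08e-13, 7.17e-12 and 6.36e-12 by edgeR). For CCNA2 trametinib changed little on its own (0.03) but lowered the gene by 0.41 on the log2 scale when EC359 was present. For HMMR trametinib alone gave 0.17, and trametinib added to EC359 gave -0.24. All 5 kinesins, all 3 kinases and all 5 genes of anaphase and degradation had a called negative term.

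**Figure D4:**
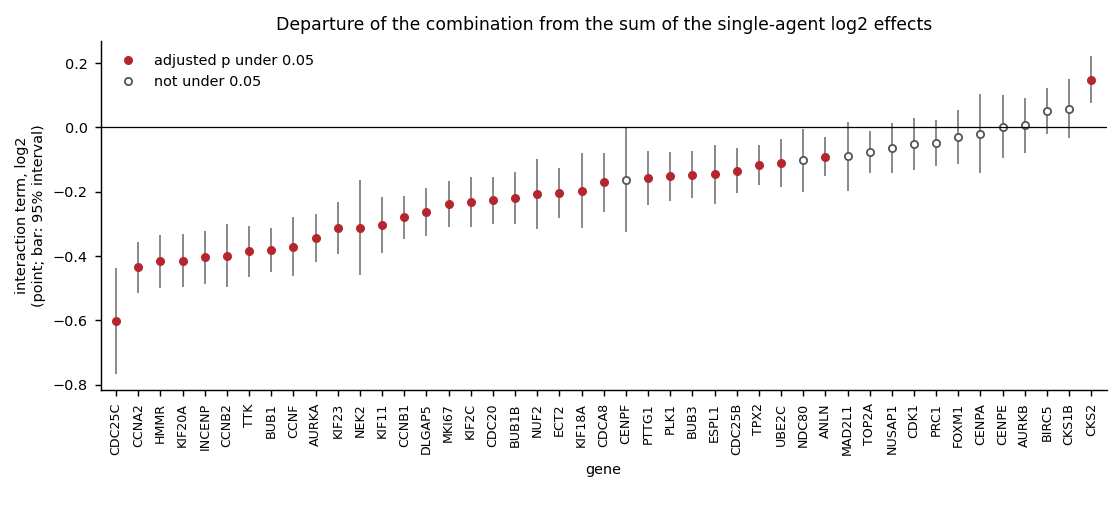
Interaction term of each of the 45 genes on the log2 scale with its 95% interval, sorted. Filled points have adjusted p under 0.05 and open points do not. The terms run from -0.60 for CDC25C to 0.15 for CKS2, with 31 filled points below 0 and 1 above.

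Other genes of the same processes were taken as lists that do not overlap with the 45. These lists, with those of the next paragraphs, were chosen with earlier results of these data known. Their counts are thus a description and no independent support. Of 73 other mitotic and G2/M genes, 47 were lower and 9 higher with EC359, 5 lower and 31 higher with trametinib, and 45 lower and 13 higher in the combination (median log2 fold changes -0.18, 0.07 and -0.25). All genes tested had 30.3% lower and 30.8% higher with EC359, 15.2% and 13.0% with trametinib, and 34.7% and 35.0% in the combination. With total counts the combination had 53 of the 73 lower and 8 higher (median -0.39), where 64.0% of all called genes were lower. BORA, which activates PLK1 through AURKA, went from 42.0 ± 0.567 CPM in control to 17.1 ± 0.575 with EC359 and 11.0 ± 0.669 in the combination (SD, n = 3 each), with the log2 ratio at -1.93 (adjusted p = 2.40e-35 by edgeR). PSRC1, a spindle protein, had -1.39. Among called genes of this list, WEE1 and PKMYT1, the kinases that place inhibitory phosphates on CDK1, had the highest log2 fold changes in the combination. WEE1 went from 36.4 ± 1.16 to 85.0 ± 2.61 CPM, with log2 fold changes of 0.67 with EC359 and 1.22 in the combination (adjusted p = 4.29e-21 and 5.90e-34 by edgeR), and PKMYT1 had 0.32 and 0.62.

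Of 16 subunits and partners of the anaphase-promoting complex, 10 were lower and 3 higher in the combination (median -0.20), beside 34.7% and 35.0% of all genes. With total counts 12 of the 16 were lower and 1 higher (median -0.34), where 64.0% of all called genes were lower. ANAPC13 fell by 1.24 and CDC27 by 0.56 on the log2 scale, and UBE2D1 rose by 0.63. Among 16 DREAM and MuvB regulators, 6 were lower and 7 higher in the combination (37.5% and 43.8%), near the 34.7% and 35.0% of all genes. Their median of 0.02 turned to -0.12 with total counts. The repressor E2F5 had a log2 fold change of -1.10 and E2F4 -0.49, while the MuvB subunit LIN54 had 0.98 and DYRK1A, the kinase that promotes DREAM assembly, 0.93 (adjusted p = 8.15e-18, 9.90e-19, 1.90e-24 and 7.27e-19 by edgeR).

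The list of G2 arrest and CDK inhibitor genes had 12 of 15 tested members higher and 3 lower in the combination (median 0.77), with 10 higher and 2 lower in each of the single treatments. All genes tested had 35.0% higher and 34.7% lower in the combination, 30.8% and 30.3% with EC359, and 13.0% and 15.2% with trametinib. With total counts 11 of the 15 were higher in the combination (median 0.63), and 8 were higher and 4 lower with EC359. CDKN1A (p21) was at 16.7 ± 0.302 CPM in control libraries, 195 ± 2.87 under EC359, 15.7 ± 1.08 under trametinib and 172 ± 4.95 in the combination (SD, n = 3 each). GADD45A, a stress gene linked to G2 arrest, was at 112 ± 4.64, 642 ± 33.3, 134 ± 1.02 and 913 ± 26.0 CPM. In the combination their log2 fold changes were 3.36 and 3.03 (adjusted p = 9.00e-56 and 9.09e-28 by edgeR), while PLK2 and CDKN2C fell at -1.63 and -1.44.

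Genes of the earlier G1/S wave were spread in both directions. Of 45 DNA replication and G1/S genes, 24 were higher and 13 lower in the combination (53.3% and 28.9%, beside 35.0% and 34.7% of all genes). The median of 0.08 turned to -0.06 with total counts, which gave 18 higher and 22 lower, where 64.0% of all called genes were lower. E2F1, a transcription factor of that wave, was at 49.6 ± 0.822 CPM in control and 104 ± 1.01 in the combination (SD, n = 3 each), with a log2 fold change of 1.07 (adjusted p = 3.16e-33 by edgeR). E2F2 had 0.87, and the replication genes GINS1 and MCM10 had -0.68 and -0.61.

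**Figure D5:**
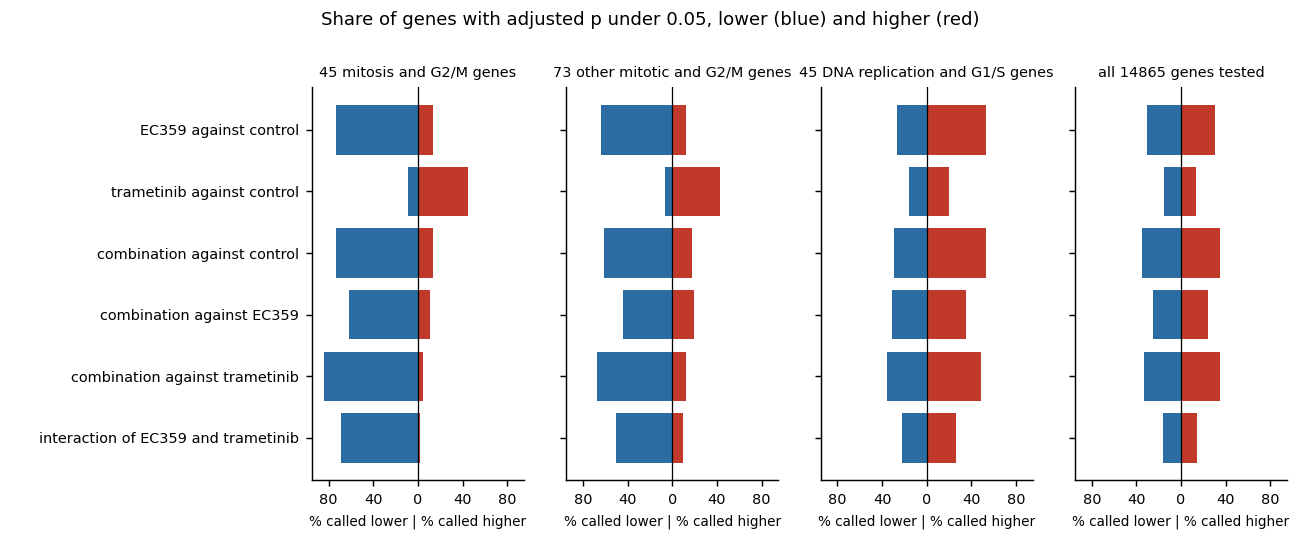
Share of genes with adjusted p under 0.05, lower (blue, to the left) and higher (red, to the right), for the 45 genes, 73 other mitotic and G2/M genes, 45 DNA replication and G1/S genes and all 14865 genes tested, in 6 comparisons. Both mitotic sets lean to the left in every comparison but trametinib against control, where 20 of the 45 and 31 of the 73 were higher. All genes are near balance throughout under this TMM scaling. With total counts, 68.2% of all called genes were lower with EC359 and 64.0% in the combination.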

How the data were processed

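Polyadenylated RNA of OVCAR8 cells was sequenced in 12 libraries, 3 for each of 4 conditions, grouped by their labelled treatment. The deposited values are estimated counts (expected counts) that the authors made with featureCounts 1.5.0-p1, reverse-stranded, per gene of an hg38 annotation, at a mapping quality of at least 2, dividing multiply placed or overlapping reads as fractions. HISAT2 and bcl2fastq are named in the submitters' processing notes, with versions not given in the sources used here. Reads shared between near copies are thus split.

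Values were rounded to whole numbers and tested in R 4.3.3 with edgeR 4.0.16 (filterByExpr with a minimum count of 10 and a minimum total of 15, TMM, robust quasi-likelihood fit over all 12 libraries, Benjamini-Hochberg adjustment over 14865 genes). A call is an adjusted p under 0.05. SE is the absolute log2 fold change divided by the square root of F. Total counts were 24790392 to 32467283 per library, and intervals of single counts cover counting error only. Scripts were tested on simulated data. The members, role groups and gene lists were chosen with earlier results of these data known. Values per library are given for 9 core members, members changed at least 2-fold in a pairwise comparison, the member of each role group with the largest change in the combination, and the 4 largest interaction terms. From each list up to 2 genes at either end of the combination's called changes are named. Promoter windows came from RefSeq (GRCh38.p14).

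Alternatives were DESeq2 1.42.0, its size factors in edgeR, total counts only, other filters, a fit on the compared groups alone, a replicate block, omission of 1 library at a time, a 2-fold minimum and glmTreat against 1.2-fold.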

Additional observations from a re-analysis of the deposited data

Results flagged for a closer look

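By the interaction term of edgeR's quasi-likelihood fit, the effect of trametinib differed with EC359 present for 32 of the 45 genes. For 31 the called term was below 0, beside 15.9% of all genes, for CKS2 it was above 0, and 13 genes were not called. The terms with the largest size were -0.60 for CDC25C, -0.44 for CCNA2, -0.42 for HMMR and -0.41 for KIF20A on the log2 scale. For each of these 4 genes the combination was lower than EC359 alone, by log2 fold changes of -0.35, -0.41, -0.24 and -0.18, while trametinib alone against control gave 0.25, 0.03, 0.17 and 0.23. With each of the 12 libraries left out in turn, 30 to 34 genes had a called term below 0.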

How the results depend on the processing

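DESeq2, its size factors, the other filters and, for the 5 pairwise comparisons, the fit on only the groups compared left every count of called members within 1.5 times its value and every median within the spread between libraries. With total counts only, 0 members were higher with EC359 and 0 in the combination, 2 were lower with trametinib and 1 was higher in the combination than with trametinib. The medians were then -0.33 with EC359, -0.50 in the combination, -0.52 for the combination against trametinib and -0.20 for the interaction. Against a 1.2-fold change (glmTreat), 14 members were lower with EC359, 0 with trametinib and 24 in the combination against control. In the combination 3 were lower against EC359 and 27 against trametinib, 9 were lower in the interaction, and 0 were higher in each of the 6 comparisons. The share of all genes was not computed with glmTreat, so these counts have no background beside them. With a 2-fold minimum, 0 were lower with EC359, 0 with trametinib, 1 in the combination, 0 against EC359, 2 against trametinib and 0 in the interaction, and 0 were higher in any. The same minimum with total counts, an alternative chosen after seeing the data, gave 7 lower in the combination and 7 against trametinib, 0 lower elsewhere and 0 higher in any.

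With each library left out, the members lower with trametinib numbered 2 to 3 and those higher 15 to 22, and the median interaction was -0.21 to -0.16. Named values that turned sign with total counts were CDK1 (-0.054 with EC359, -0.060 in the combination, -0.13 for the combination against trametinib), TOP2A (-0.080 with EC359, -0.099 in the combination) and CCNB1 with trametinib (0.018). With a library left out, values near 0 turned sign for PLK1 with trametinib (-0.0065 to 0.031), CDK1 in the combination against EC359 (-0.035 to 0.031) and FOXM1 in the interaction (-0.055 to 0.0056). Of 1513 recomputed values of named members, 1415 kept direction and side of the threshold, 74 lost the call, 11 gained it and 13 turned sign. Of the 74, 31 lost the call with a library left out and 43 with another setting. Most of the 43 came with glmTreat, which tests against a 1.2-fold change and not against 0. Beyond these settings and the shift of scale, the cause was not tested.

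Replicate numbers did not pair the samples, since deviations correlated at -0.07 to 0.03 between libraries of the same number and 1 of 12 libraries matched best with its own number. With the replicate block, 33 members were lower and 6 higher with EC359, 3 and 21 with trametinib, 33 and 6 in the combination, 28 and 5 against EC359, 38 and 2 against trametinib, and 32 and 1 in the interaction.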
